A study of Mus musculus with 32 samples.

Results

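Ikaros, CHD4 and H3K27ac were examined around the 5 genes that encode the D-type cyclins and the kinases they activate: Ccnd1, Ccnd2, Ccnd3, Cdk4 and Cdk6. The peaks were chosen by position alone. All peaks that touched a gene body or the 50 kb on either side of it were taken, on the mouse build mm10. For each target, peaks from its 8 lists that shared at least 1 bp were joined into one region. This left 44 of 23856 merged Ikaros regions, 31 of 15358 CHD4 regions and 119 of 39309 H3K27ac regions. The 5 genes are 5 of 21938 protein-coding genes in the annotation.

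The data are chromatin immunoprecipitation sequencing (ChIP-seq) peak lists from B3, a mouse pre-B cell line that was retrovirally transduced with an HA-tagged fusion of Ikaros (IKZF1) and ERt2. The ERt2 domain holds the fusion in the cytoplasm, and 4-hydroxytamoxifen (4-OHT) releases it into the nucleus. Cells were untreated (0 h) or given 500 nM 4-OHT for 30 min, 1 h or 2 h, and every group carried the fusion. HA-Ikaros, CHD4 (a remodelling subunit of the corepressor complex NuRD) and the histone mark H3K27ac were profiled at each time with 2 replicates, for a total of 24 lists. No cells without the fusion were compared here, so effects of 4-OHT itself and of nuclear Ikaros cannot be told apart. The labels do not say whether the 2 replicates were separate cultures, and p-values then measure only the spread between these libraries.

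D-type cyclins are made when growth signals reach a cell, and they bind and activate the kinases CDK4 and CDK6. The active pairs phosphorylate the retinoblastoma protein, which frees E2F factors to switch on the genes of DNA synthesis. In B-cell precursors cyclin D3 is known for its part in the expansion of pre-B cells. Ikaros is a zinc finger protein of lymphoid cells that binds DNA at sites built around GGGAA and is known to restrain the proliferation of pre-B cells.

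6 Ikaros regions carry most of what follows, and the sequence around the strongest summit of each is printed with GGGAA, or its complement TTCCC, in capitals. Each sequence is 201 bases of the plus strand of GRCm38 (RefSeq), centred on the summit in the library with the highest fold. The first region lies upstream of Ccnd2 and was called at every time after 4-OHT but not before. The next region spans the Ccnd2 start site, and the bases shown lie wholly upstream of that site. The Ccnd1 region lies just upstream of that gene. The first Ccnd3 region was called at all times, the other Ccnd3 region at 0 h only, and the Cdk6 region at all times.
Ccnd2 upstream, chr6:127154936-127155136: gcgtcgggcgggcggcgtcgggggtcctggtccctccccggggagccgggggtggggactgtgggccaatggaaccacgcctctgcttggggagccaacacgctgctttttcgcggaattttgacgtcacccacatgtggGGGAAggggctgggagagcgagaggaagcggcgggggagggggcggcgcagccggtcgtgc
Ccnd2 start-site region, chr6:127152678-127152878: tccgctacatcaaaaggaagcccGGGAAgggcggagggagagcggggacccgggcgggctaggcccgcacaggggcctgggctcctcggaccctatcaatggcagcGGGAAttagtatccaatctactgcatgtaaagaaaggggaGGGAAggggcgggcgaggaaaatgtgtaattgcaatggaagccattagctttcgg
Ccnd1 upstream, chr7:144941513-144941713: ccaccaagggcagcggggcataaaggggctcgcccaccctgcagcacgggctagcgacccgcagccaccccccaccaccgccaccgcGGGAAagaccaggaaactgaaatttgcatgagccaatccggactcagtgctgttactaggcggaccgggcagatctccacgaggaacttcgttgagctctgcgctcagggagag
Ccnd3 intron near the start, chr17:47508028-47508228: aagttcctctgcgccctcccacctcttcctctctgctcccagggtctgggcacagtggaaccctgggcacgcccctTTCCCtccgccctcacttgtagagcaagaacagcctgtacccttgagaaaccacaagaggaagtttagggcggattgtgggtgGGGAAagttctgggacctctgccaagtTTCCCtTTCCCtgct
Ccnd3 0 h only, chr17:47567323-47567523: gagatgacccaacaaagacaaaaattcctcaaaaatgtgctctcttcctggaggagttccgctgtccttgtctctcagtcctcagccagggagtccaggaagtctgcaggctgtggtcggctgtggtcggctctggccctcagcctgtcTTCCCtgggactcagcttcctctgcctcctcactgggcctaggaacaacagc
Cdk6 intron, chr5:3501696-3501896: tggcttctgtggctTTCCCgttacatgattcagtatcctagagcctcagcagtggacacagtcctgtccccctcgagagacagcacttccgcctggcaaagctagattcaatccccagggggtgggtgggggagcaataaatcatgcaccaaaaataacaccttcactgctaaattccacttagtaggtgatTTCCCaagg

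The word GGGAA was searched on both strands, and it contains the shorter word GGAA. The Ccnd3 summit near the start held 4 such words and the summit of the Ccnd2 start-site region 3, while the Cdk6 summit held 2 and each of the other sequences 1. Of the 44 Ikaros regions near the 5 genes, 31 (70.5%) held the word within 201 bases around the summit, against 59.3% of all 23856 Ikaros regions. These are matches of letters in a window and say nothing of which copy was bound.

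The lists differed in length between times, which bears on every count below. Ikaros lists held 7822 and 9527 peaks at 0 h and 14225 and 14179 at 2 h. CHD4 lists ranged from 2488 to 9593 peaks and H3K27ac lists from 21468 to 33664. The mean background coverage at which a list was called, read back from the fold and the p of its peaks, ranged from 1.98 to 3.40 fragments per base for Ikaros and from 2.69 to 3.75 for H3K27ac, and it is unknown for CHD4. Between 38.7% and 69.2% of the peaks read in a list matched that value. Among matched peaks, 7.59% and 3.67% gave a whole number of fragments (within 0.02) in the 0 h Ikaros lists, against 100% in all 6 later Ikaros lists. In H3K27ac lists the share was 0.721% to 4.47% in 7 lists and 100% in the first 30 min list. The 0 h Ikaros lists therefore differed from the later ones in this property, and the part of this in the Ikaros folds and calls compared between 0 h and later times was not tested. In H3K27ac lists the median log2 fold enrichment over regions called in all 8 lists was 3.65 and 3.40 at 0 h and 3.09 and 3.04 at 2 h, so fold enrichment at any one region has to be read against that shift. All 8 pre-B markers examined had an H3K27ac peak within 1 kb of a start site in all 8 lists, as did 1 of 4 T cell, 0 of 4 myeloid and 2 of 3 erythroid markers.

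Peaks covered more of the Ccnd1, Ccnd2 and Ccnd3 windows for Ikaros at 2 h than at 0 h, and less of the Ccnd1 and Ccnd2 windows for H3K27ac. Both 2 h Ikaros libraries covered a greater length than both 0 h libraries at these 3 of the 5 genes, while 62.0% of all gene windows with a peak at either time did so and 4.25% went the other way. For CHD4, the 2 times overlapped at 4 genes, and Cdk4 was longer at 2 h, against a background of 22.2% longer and 1.76% shorter. For H3K27ac, Ccnd1 and Ccnd2 were shorter and Ccnd3 was longer at 2 h, against 35.4% longer and 20.2% shorter. The Ikaros count is close to the share among all genes. With 2 libraries against 2 an exact permutation test cannot reach p = 0.05, so these are counts with no test.

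**Figure D1:**
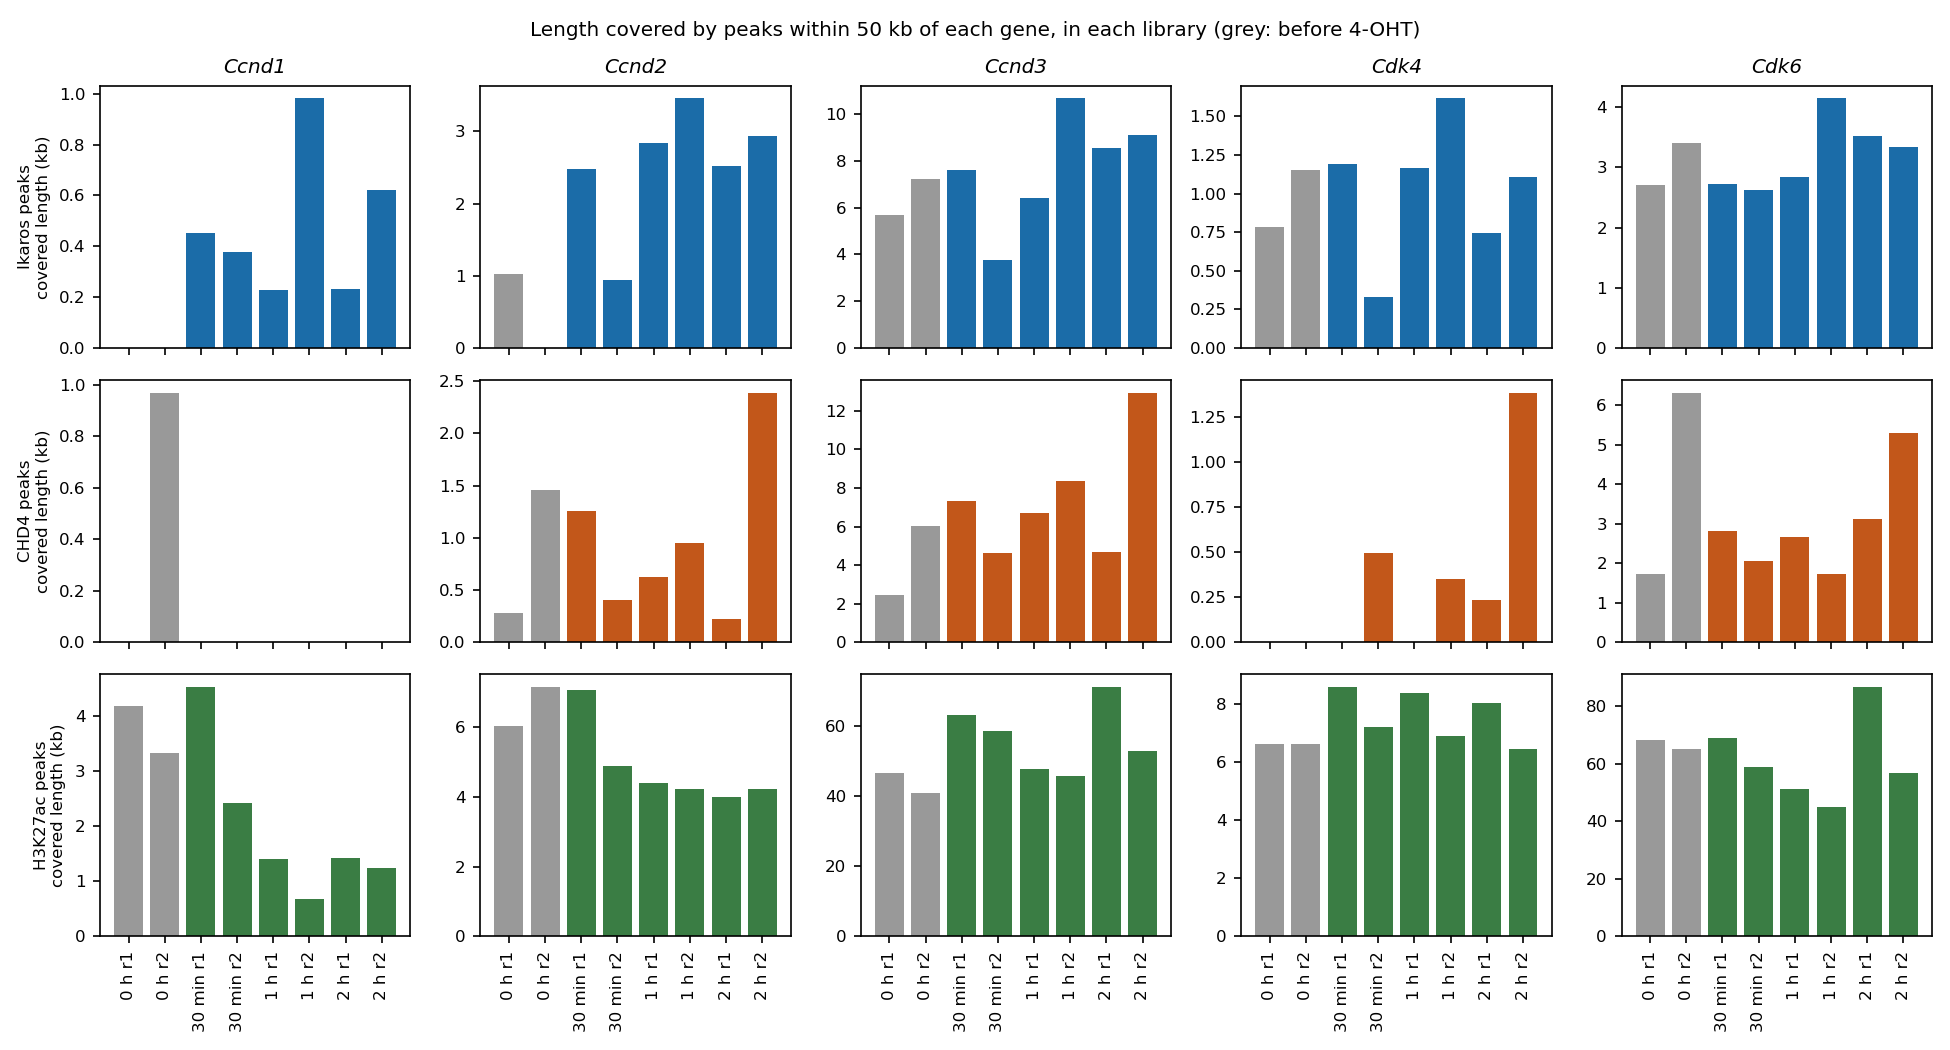
Length in kb covered by Ikaros, CHD4 and H3K27ac peaks within 50 kb of each gene, 1 bar per library, with untreated libraries in grey and panels on their own scales. The Ccnd1 and Ccnd2 H3K27ac bars at 1 h and 2 h all lie below both 0 h bars, and Ccnd1 has no Ikaros bar at 0 h.

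By calls in both libraries of a time, few regions near the 5 genes were gained or lost between 0 h and 2 h, and the counts depended on single libraries. Gained regions were those with calls from both 2 h libraries and from no 0 h library, and lost regions were the opposite. For Ikaros, 1 of 44 regions was gained and 1 was lost, where 12.0% of all merged Ikaros regions were gained and 3.59% were lost. For CHD4, the gained regions numbered 2 of 31 and the lost ones 0, where all CHD4 regions gave 5.30% and 1.45%. H3K27ac had 2 gained regions of 119 and 1 lost, where all its regions gave 3.73% and 2.78%. When 1 of the 2 h libraries was left out, gained regions numbered 9 or 8 for Ikaros, 9 or 8 for CHD4, and 6 or, without the second 2 h library, 45 for H3K27ac. When 1 of the 0 h libraries was left out, lost regions numbered up to 4 for Ikaros (without the first), 3 for CHD4 (without the first) and 10 for H3K27ac (without the second). These counts with a library left out were not made over all merged regions, so they have no background share beside them. The gained Ikaros region lay upstream of Ccnd2 and the lost one in Ccnd3. Both gained CHD4 regions lay in Ccnd3, the gained H3K27ac regions in Ccnd3 and Cdk6, and the lost H3K27ac region at the Ccnd1 start site. At 30 min and at 1 h, 2 of the 44 Ikaros regions were gained at each time, against 2.04% and 11.3% of all Ikaros regions.

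Fold enrichment was tested with limma on log2 values, centred on each library's median, for the regions called in all 8 libraries of a target. None of 6 Ikaros, 2 CHD4 and 25 H3K27ac regions near the 5 genes passed an adjusted p of 0.05 at 2 h, over all regions tested in the genome. The share of all regions past that threshold was 5.68% for Ikaros, 0.138% for CHD4 and 0.428% for H3K27ac. At an unadjusted p under 0.05, 1 Ikaros region (lower at 2 h), 0 CHD4 regions and 5 H3K27ac regions (2 higher and 3 lower) were counted. Over all regions tested, 20.3% of Ikaros, 7.33% of CHD4 and 15.9% of H3K27ac regions had such a p, so the counts near the 5 genes were close to the background. Leaving out any one 0 h or 2 h library cut the calls over all regions from 131 to between 34 and 55 for Ikaros and from 63 to 0 for H3K27ac. The median centred log2 difference of the 25 H3K27ac regions was 0.16, and that of all 14716 regions tested was 0.054. On that scale 14 of the 25 were higher and 11 lower, and without centring 6 were higher and 19 lower. The median without centring was -0.30 for the 25 and -0.41 for all regions tested, so the 25 were not lower than regions at large. No regions near the 5 genes were shown to differ by this test, and the values that follow are descriptions beside it.

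Ccnd2 encodes cyclin D2, a D-type cyclin of B-lineage cells, and lies on the minus strand at chr6:127125162-127152193. Within 10 kb of its start site Ikaros peaks covered 1030 and 0 bp at 0 h and 2218 and 2080 bp at 2 h, and H3K27ac peaks covered 6038 and 6887 bp at 0 h and 4004 and 4244 bp at 2 h. Ikaros thus covered more and H3K27ac less in both 2 h libraries than in both 0 h libraries. At 0 h, 1 Ikaros library had 3 peaks in the window and the other 0, and each later library had between 3 and 6. The gained region at chr6:127154502-127155618, in an intron of 9330179D12Rik with its centre 2867 bp upstream of the Ccnd2 start site, had no peak in either 0 h library. Its fold enrichment was 5.09 and 5.37 at 30 min, 5.40 and 4.02 at 1 h, and 4.20 and 2.83 at 2 h. The peaks in this region were short and did not all touch each other, and a fold cut of 3 removes the weakest, so the call rests on a value close to that cut. The region was not counted as gained with lists of equal size or at a -log10 q of at least 3, where 0 Ikaros regions were gained. Nor was it where a peak had to span at least 50% of its region, as the 2 h peaks covered 313 and 440 of 1117 bp.

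The Ikaros region across the Ccnd2 start site, chr6:127150680-127152976, was called in 7 of 8 libraries. Its fold enrichment was 4.74 in the first 0 h library and was not called in the second, then 5.65 and 3.63 at 30 min, 6.53 and 4.82 at 1 h, and 4.54 and 7.04 at 2 h. The values after 4-OHT lay on both sides of the 0 h value. The CHD4 region that overlaps it, chr6:127151546-127153664, was also called in 7 of 8 libraries, with fold enrichment of 4.20 and 3.19 at 0 h and, at 2 h, 3.57 in 1 library only. At 30 min and 1 h its values were between 3.15 and 3.51. CHD4 was thus called at the Ccnd2 start site before 4-OHT, and 1 later value, 3.15, lay below both 0 h values.

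H3K27ac at Ccnd2 formed a domain, chr6:127148607-127155493, which spans the start site. Its highest fold enrichment was 16.3 and 16.2 at 0 h, 19.4 and 7.57 at 30 min, 10.7 and 7.06 at 1 h, and 6.10 and 5.88 at 2 h. Every 1 h and 2 h value lay below both 0 h values, and 1 of the 30 min values lay above them. The summit behind that fold was not at one place. It lay 1641 and 1651 bp into the gene at 0 h, 81 and 459 bp at 1 h, and 2643 and 2490 bp at 2 h. On the centred log2 scale the 2 h minus 0 h difference was -0.98 ± 0.31 (SE), at the 1.80th percentile of the 14716 regions tested by limma, with a limma p of 0.00651 and an adjusted p of 0.137. The call depended on centring: without it the limma difference was -1.44 and the adjusted p was 0.0415, over a range of 0.0415 to 0.44 among the alternatives.

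The H3K27ac length at Ccnd2 differed mainly on the upstream side. H3K27ac peaks near the start site reached 2745 and 3300 bp upstream of it at 0 h, 3278 and 2490 bp at 30 min, 1744 and 844 bp at 1 h, and 729 and 843 bp at 2 h. Downstream the last peak ended 4062 and 3586 bp into the gene at 0 h and 3492 and 3400 bp at 2 h. The 2 h libraries thus both ended nearer to the start site on the upstream side than any 0 h or 30 min library. The gained Ikaros region overlapped an H3K27ac peak in both libraries at 0 h and at 30 min, and in 0 libraries at 1 h and at 2 h. In all, H3K27ac covered 6038 and 7162 bp of the Ccnd2 window at 0 h and 4004 and 4244 bp at 2 h.

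**Figure D2:**
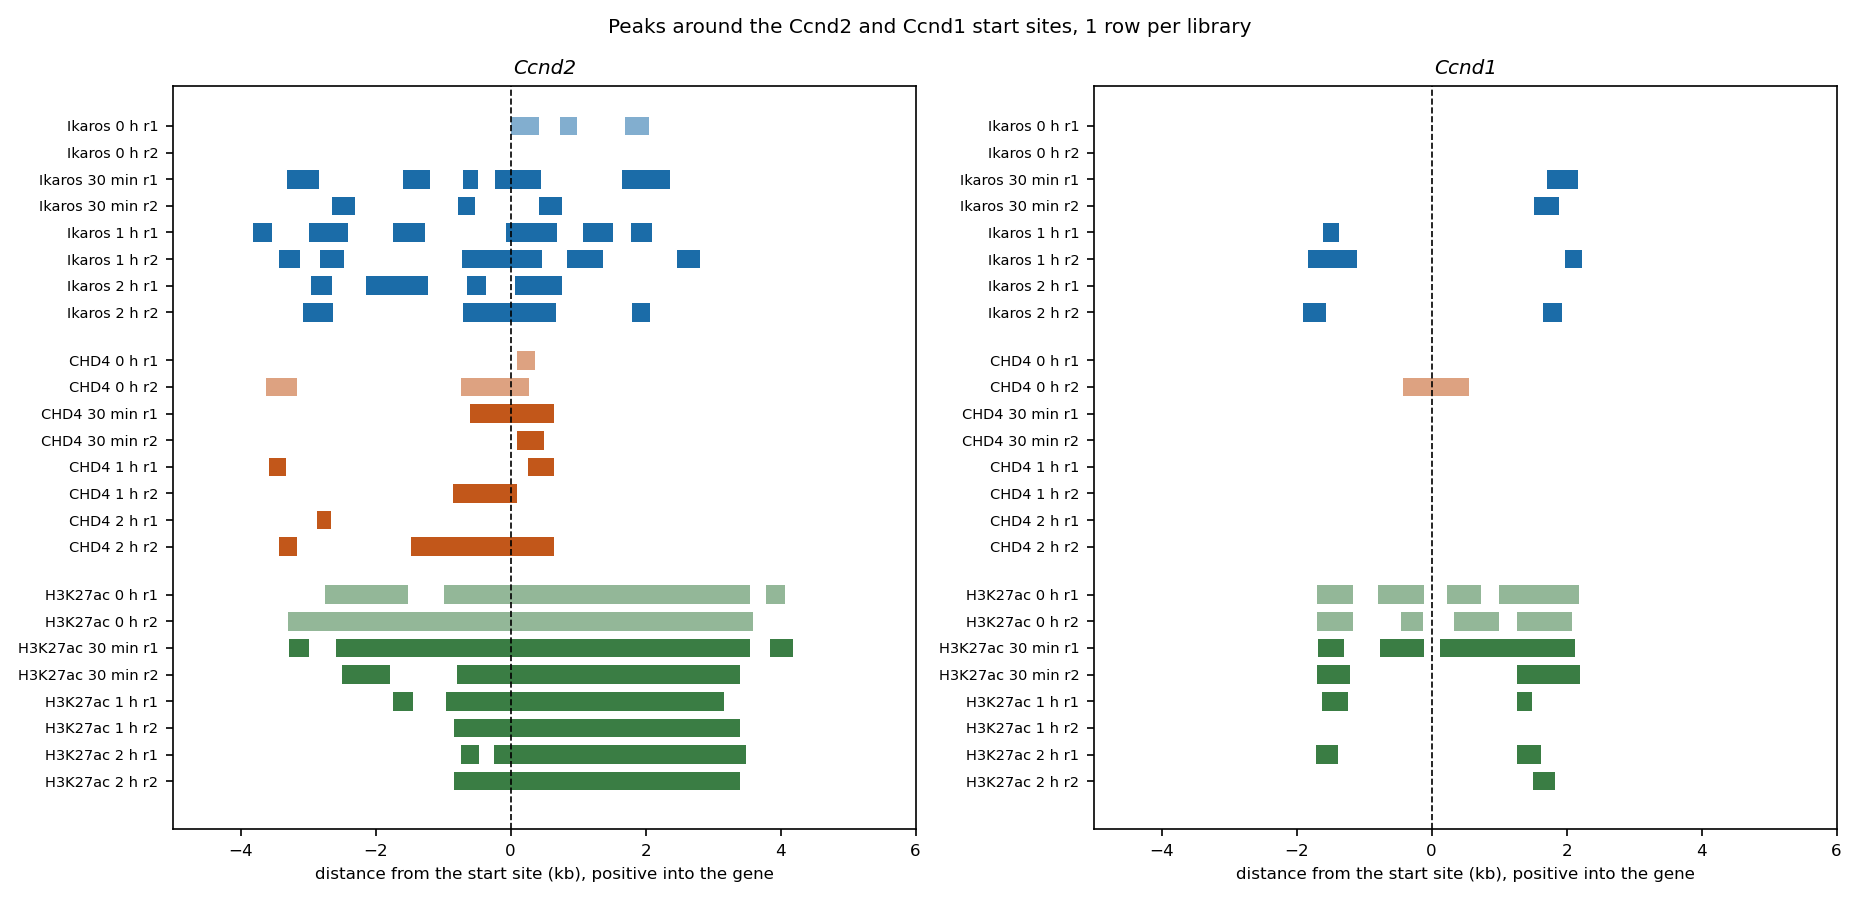
Peaks within a few kb of the Ccnd2 and Ccnd1 start sites, 1 row per library, as bars over the distance in kb from the start site (dashed line), with 0 h libraries in a lighter shade. Upstream of Ccnd2, Ikaros bars appear in all libraries after 4-OHT while the H3K27ac bars end at 729 and 843 bp at 2 h.

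Ccnd1 encodes cyclin D1, which is widely expressed outside the lymphoid lineage, and lies on the minus strand at chr7:144929931-144939925. Ikaros had 0 peaks in its window at 0 h and 1 or 2 in every library after 4-OHT. The region with the highest mean fold over the libraries that called it, chr7:144941026-144941828, has its centre 1502 bp upstream and was called at 3.40 and 4.41 at 1 h and at 5.44 in 1 library at 2 h. A region inside the gene, chr7:144937695-144938412, was called at 4.58 and 4.02 at 30 min, 4.02 in 1 library at 1 h and 3.84 in 1 library at 2 h. Neither region was called in both 2 h libraries, so neither counted as gained. CHD4 was called once, in 1 library at 0 h, with a fold enrichment of 3.10 across the start site, chr7:144939372-144940341.

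H3K27ac near the Ccnd1 start site had lower fold enrichment, or no call, at 1 h and 2 h. The lost region, chr7:144940039-144940721, just upstream, had a fold enrichment of 6.41 and 6.84 at 0 h and 5.05 in 1 library at 30 min, and was not called at 1 h or 2 h. The region in the first part of the gene, chr7:144937725-144939799, stood at 7.32 and 6.67 at 0 h and 3.77 and 2.90 at 2 h. The region farther upstream, chr7:144941085-144941634, stood at 8.23 and 5.69 at 0 h, and at 3.96 in 1 library at 2 h. H3K27ac covered 4172 and 3319 bp of the Ccnd1 window at 0 h, 4520 and 2420 bp at 30 min, 1403 and 686 bp at 1 h, and 1417 and 1248 bp at 2 h. The only H3K27ac region of the Ccnd1 window called in all 8 libraries, chr7:144914761-144916236, has its centre 24426 bp away in LTO1 and stood at 11.0 and 8.58 at 0 h and 5.54 and 6.34 at 2 h, and its centred log2 difference was -0.25 ± 0.28 (limma, adjusted p = 0.726).

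**Figure D3:**
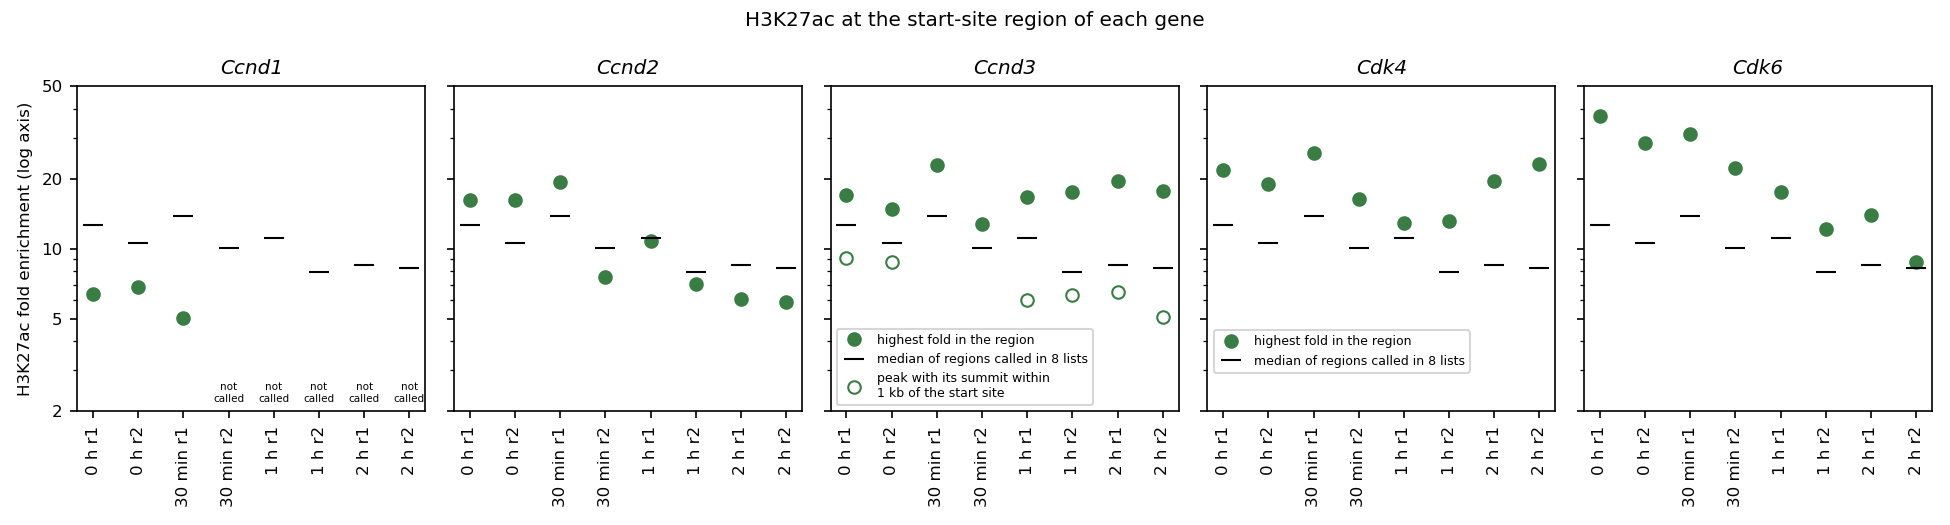
Highest H3K27ac fold enrichment (log axis) in the start-site region of each gene, 1 point per library, with a dash at the library's median over regions called in all 8 lists. For Ccnd3 the filled points are a peak 2876 to 2944 bp upstream in a region shared with Taf8, and the open points are the peak at the start site itself (9.14 and 8.75 at 0 h, 6.52 and 5.10 at 2 h), which was not separate at 30 min. Ccnd2 lies above the dash at 0 h (16.3 and 16.2) and below it at 2 h (6.10 and 5.88), and Cdk6 lies at 37.2 and 28.3 at 0 h and at 14.0 and 8.80 at 2 h.

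Ccnd3 encodes cyclin D3, the D-type cyclin most tied to pre-B cells, and lies on the plus strand at chr17:47505051-47599691. It held 16 of the 44 Ikaros regions, of which 5 were called in all 8 libraries, and 11 of the 31 CHD4 regions. The Ikaros region in an intron near the start, chr17:47507389-47509549, was called at 7.76 and 5.69 at 0 h, 4.52 and 5.42 at 30 min, 8.24 and 6.81 at 1 h, and 5.62 and 4.55 at 2 h. Its values at 1 h lay above those at 2 h, and the centred log2 difference at 2 h was -0.31 ± 0.35 (limma, adjusted p = 0.652). The region at chr17:47521405-47524014 stood at 8.66 and 10.1 at 0 h, 9.61 and 7.71 at 30 min, 9.09 and 8.66 at 1 h, and 3.90 and 6.64 at 2 h. Both 2 h values lay below the 6 earlier ones, and the centred log2 difference was -0.79 ± 0.34, with a limma p of 0.0246 and an adjusted p of 0.178. At an annotated start inside the gene, chr17:47592813-47596166, Ikaros was called at 11.2 and 5.41 at 0 h, 6.50 and 5.03 at 30 min, 6.82 and 5.88 at 1 h, and 5.71 and 6.40 at 2 h. The times overlapped, and the centred log2 difference of -0.28 ± 0.36 (limma, adjusted p = 0.709) was 0.37 without the first 0 h library. Of the 5 tested Ikaros regions in Ccnd3, 1 was higher at 2 h and 4 were lower, with centred log2 differences from -0.79 to 0.59.

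The lost Ikaros region of Ccnd3, chr17:47567204-47567806, lies in an intron with its centre 62454 bp from the start site and had, over the libraries that called it, the highest mean fold of the 44 Ikaros regions. It was called at 9.05 and 11.2 at 0 h and in 0 of the 6 later libraries. H3K27ac was nonetheless called across it at 2 h, at 5.74 and 3.86, after 5.66 and 5.97 at 0 h. CHD4 was called at this region in none of the 8 libraries.

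The CHD4 region of Ccnd3 with the highest mean fold over its calls, chr17:47502530-47504349, lies just upstream of the start site and was already called before 4-OHT. It stood at 4.01 and 3.61 at 0 h, 2.96 in 1 library at 30 min, 3.99 and 4.62 at 1 h, and 3.63 and 4.01 at 2 h, so the 0 h and 2 h values overlapped. CHD4 was gained at 2 other places in Ccnd3, and an Ikaros region called in all 8 libraries overlapped each. At chr17:47507252-47509458 CHD4 was called in neither 0 h library and in all 6 later ones, at 2.97 and 3.45 at 30 min, 3.41 and 3.91 at 1 h, and 3.41 and 3.65 at 2 h. At chr17:47592828-47595759 it was called at 3.24 in 1 library at 30 min, 3.90 in 1 at 1 h, and 3.06 and 3.17 at 2 h. The CHD4 list of the first 0 h library was the shortest, with 2488 peaks, and that of the second 2 h library the longest, with 9593, and their part in these calls was not tested. With lists of equal size 1 CHD4 region was gained. At a -log10 q of at least 3, a limit that few CHD4 peaks met, there were 0. CHD4 at chr17:47520491-47523638 was called in all 8 libraries, at 3.67 and 3.73 at 0 h and 3.21 and 3.89 at 2 h. Its centred log2 difference was 0.04 ± 0.12 (limma, adjusted p = 0.974).

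**Figure D4:**
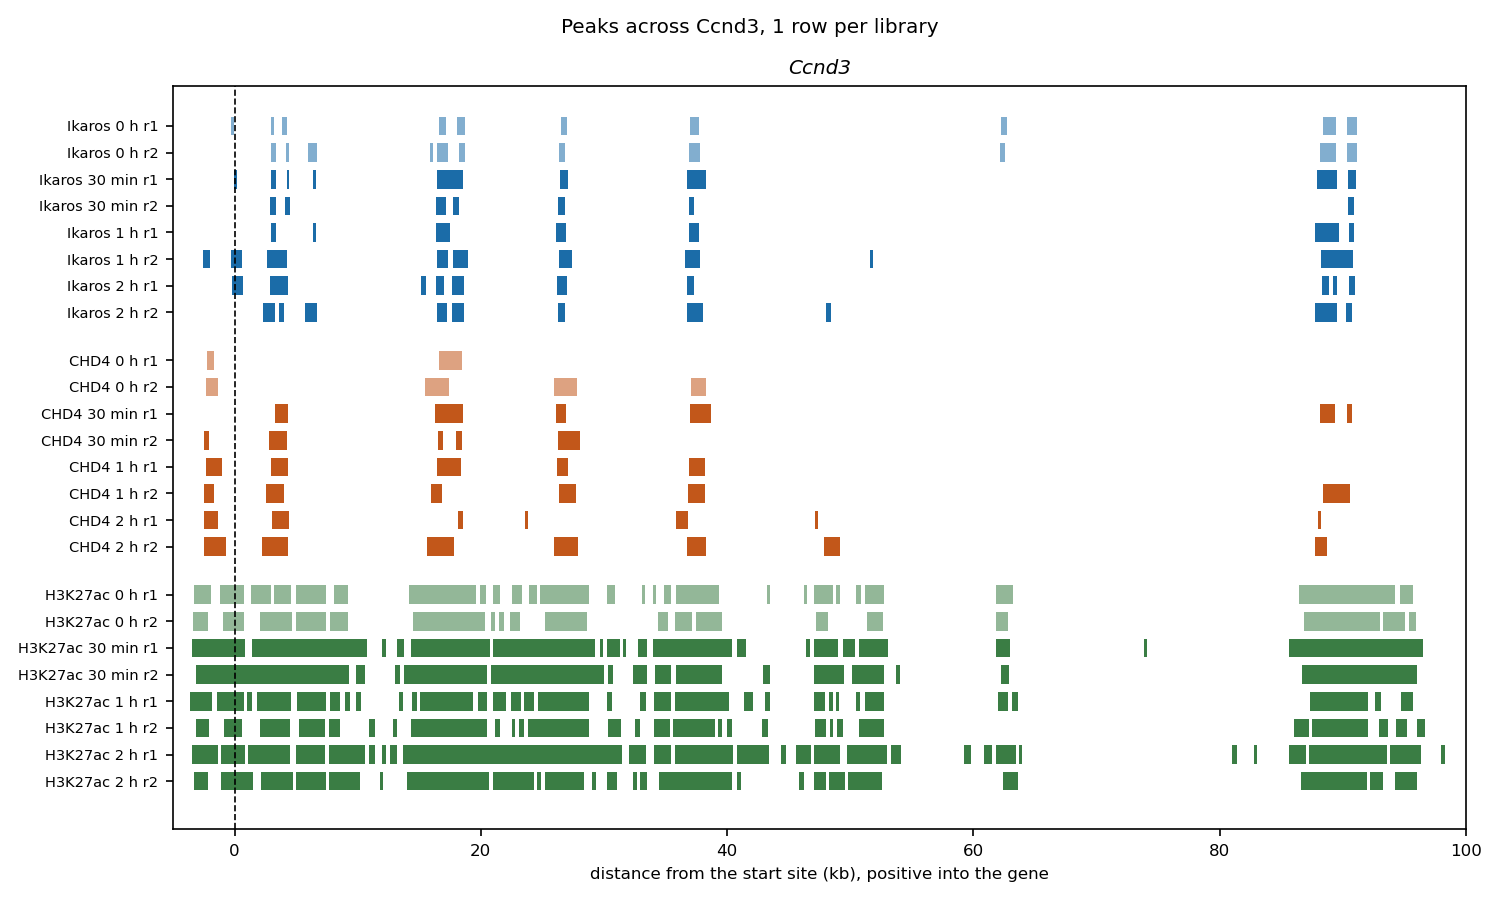
Peaks across Ccnd3, 1 row per library, as bars over the distance in kb from the start site (dashed line), with 0 h libraries in a lighter shade. CHD4 bars stand near 3 kb in all 6 libraries after 4-OHT and in neither 0 h library, and the Ikaros bar with its centre at 62454 bp is in the 0 h rows alone.

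H3K27ac across Ccnd3 was not of one direction. The region that holds the start site, chr17:47501425-47515791, also holds the start of the neighbouring gene Taf8, and its highest fold was that of a peak with its summit 2876 to 2944 bp upstream of the Ccnd3 start. That fold was 17.0 and 14.8 at 0 h and 19.5 and 17.8 at 2 h, a centred log2 difference of 0.70 ± 0.28 (limma, adjusted p = 0.237). The separate peak over the Ccnd3 start site itself stood at 9.14 and 8.75 at 0 h, 6.03 and 6.30 at 1 h, and 6.52 and 5.10 at 2 h. All 4 of its later values lay below both 0 h values, while the median log2 fold of the lists went from 3.65 and 3.40 to 3.09 and 3.04. This peak was not tested alone, and at 30 min both libraries called 1 peak across both places. The domain with the highest mean fold, chr17:47517638-47536509, stood at 25.0 and 21.6 at 0 h and 18.3 and 17.2 at 2 h, a centred difference of 0.07 ± 0.25. The domain at the far end of the gene, chr17:47590664-47601698, stood at 23.0 and 19.8 at 0 h, 16.0 and 13.1 at 1 h, and 11.8 and 10.2 at 2 h, a centred difference of -0.50 ± 0.25 (limma, adjusted p = 0.36). The region at chr17:47609079-47612491 in Bysl stood at 15.7 and 12.2 at 0 h and 4.93 and 6.56 at 2 h, a centred difference of -0.82 ± 0.30 (limma, adjusted p = 0.189). The gained H3K27ac region, chr17:47516879-47517339, was short and stood at 2.98 and 3.86 at 2 h and at 3.79 in 1 library at 30 min. Covered length at Ccnd3 was 46520 and 40916 bp at 0 h and 71052 and 52879 bp at 2 h, while the whole lists covered 40182 and 37597 kb at 0 h and 46532 and 39360 kb at 2 h.

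Cdk4 encodes one of the kinases that D-type cyclins activate, and lies on the plus strand at chr10:127063534-127067920. Its start site carried H3K27ac in every library and almost no Ikaros or CHD4. The H3K27ac region, chr10:127063433-127066264, stood at 21.7 and 19.0 at 0 h, 25.9 and 16.3 at 30 min, 12.9 and 13.1 at 1 h, and 19.5 and 23.1 at 2 h. The 2 h values overlapped the 0 h values, and the centred log2 difference was 0.53 ± 0.28 (limma, adjusted p = 0.372). Ikaros was called there, at chr10:127063431-127063689, in 1 of 8 libraries, at 3.02 at 1 h, and CHD4 in 0 of 8. The Ikaros region of the window with the highest mean fold over its calls, chr10:127069700-127070791, lies in Tspan31 and was called in 7 libraries, at 6.47 and 4.51 at 0 h and 5.48 in 1 library at 2 h. All 5 CHD4 regions of the window were called in 1 library each, at 3.01 to 3.29, the highest at chr10:127030107-127030811 in Tsfm. These lie at Tsfm, Mettl1 and other neighbours, and the window holds start sites of 7 other protein-coding genes.

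Cdk6 encodes the other kinase and is the longest of the 5 genes, on the plus strand at chr5:3341485-3531008. It held 83 of the 119 H3K27ac regions, or 28.7 per 100 kb of its window, against a median of 1.96 over all protein-coding genes. That median includes genes without a region, as the lower quartile was 0, and the pre-B marker Ebf1 had 131 regions. Of the 119 regions 51 were called in 1 library, and 11 regions of the Cdk6 window were called in all 8. The domain at the start of Cdk6, chr5:3337207-3352622, stood at 37.2 and 28.3 at 0 h, 31.1 and 22.3 at 30 min, 17.5 and 12.2 at 1 h, and 14.0 and 8.80 at 2 h. All 4 values at 1 h and 2 h lay below all 4 at 0 h and 30 min. The summit behind the fold lay 108 and 2933 bp downstream of the start site at 0 h, and 756 and 1041 bp upstream at 2 h. The centred log2 difference at 2 h was -1.09 ± 0.28, at the 1.09th percentile of all regions tested, with a limma p of 0.00153 and an adjusted p of 0.0852. Without centring the difference was -1.55 and the limma adjusted p was 0.024, and the range over the alternatives was 0.024 to 0.306.

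Inside Cdk6 the H3K27ac regions went both ways. The intronic domain with the highest mean fold, chr5:3486389-3506962, stood at 41.2 and 24.1 at 0 h, 19.8 and 10.2 at 1 h, and 19.3 and 22.6 at 2 h, a centred difference of -0.13 ± 0.29 at 2 h (limma, adjusted p = 0.869). A weaker region, chr5:3381242-3384962, stood at 3.51 and 4.07 at 0 h and 5.93 and 4.81 at 2 h, a centred difference of 0.96 ± 0.32 (limma, adjusted p = 0.159). The gained region, chr5:3385820-3387401, stood at 4.36 and 3.09 at 2 h and was not called at 0 h. Of the 11 H3K27ac regions tested in the Cdk6 window, 7 were higher and 4 lower at 2 h on the centred scale. Without centring 2 were higher and 9 lower, with a median of -0.25 against -0.41 over all H3K27ac regions tested. The first 2 h library called 74 peaks here and the second 40, while the 0 h libraries called 44 and 32.

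**Figure D5:**
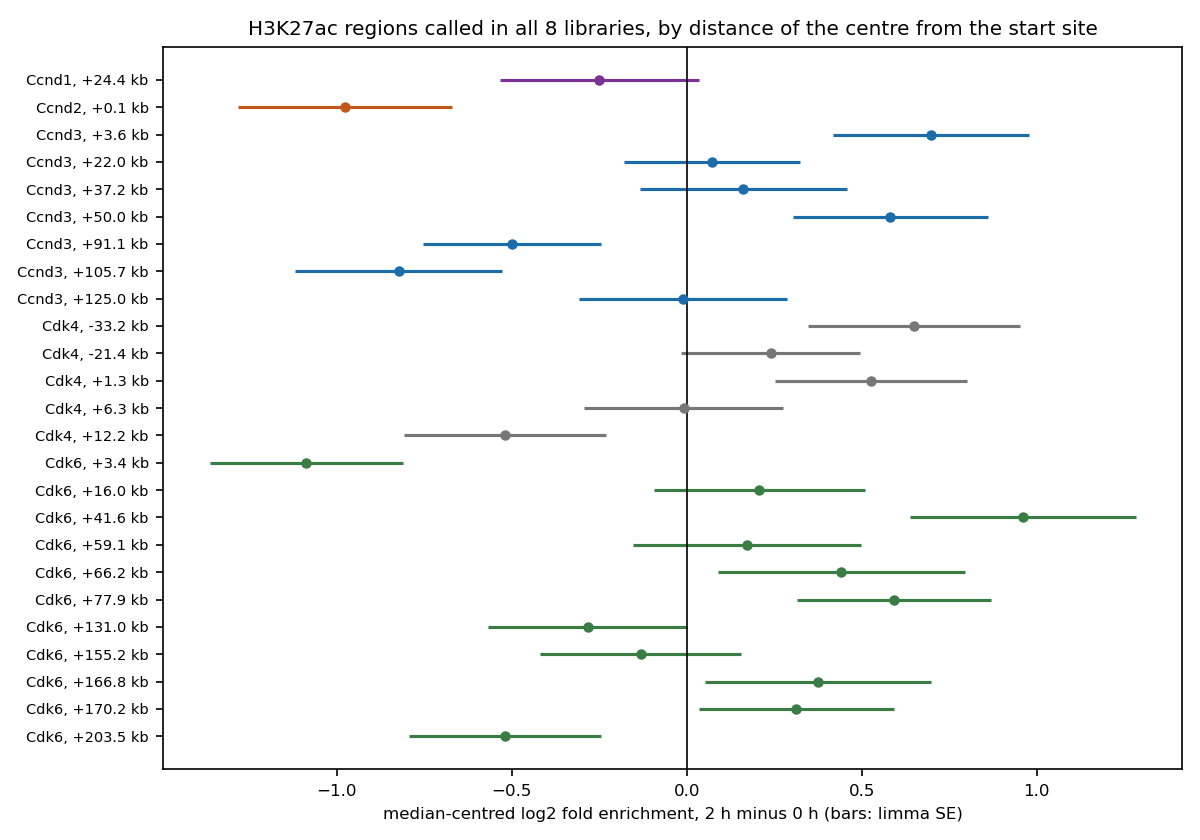
Median-centred log2 H3K27ac fold enrichment at 2 h minus 0 h for the 25 regions called in all 8 libraries, by gene and distance of the region's centre from the start site, with limma standard errors as bars. The domains that span the Cdk6 (-1.09) and Ccnd2 (-0.98) start sites are the lowest, and a Cdk6 intronic region (0.96) is the highest.

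Ikaros and CHD4 peaks overlapped inside Cdk6 before and after 4-OHT. These are calls from separate libraries and do not show both proteins on the same DNA. The Ikaros region of the Cdk6 window with the highest mean fold, chr5:3501019-3502958, was called at 8.40 and 12.5 at 0 h, 9.33 and 4.38 at 30 min, 9.94 and 14.2 at 1 h, and 7.70 and 9.69 at 2 h. Its centred log2 difference at 2 h was -0.16 ± 0.35 (limma, adjusted p = 0.844). CHD4 over the same place, chr5:3501008-3502831, was called in all 8 libraries, at 4.02 and 3.64 at 0 h and 4.05 and 3.31 at 2 h, a centred difference of 0.04 ± 0.13 (limma, adjusted p = 0.974). A neighbouring Ikaros region, chr5:3497119-3498276, stood at 8.40 and 23.0 at 0 h and at 4.87 in 1 library at 2 h. At the start of the gene Ikaros was called at chr5:3343586-3344666 in 7 libraries, at 4.70 in 1 library at 0 h and 3.57 and 5.01 at 2 h. A CHD4 region that overlaps it, chr5:3343901-3345477, was called in 5 libraries, at 3.44 in 1 library at 0 h and 2.81 in 1 library at 2 h.

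Ikaros regions near the 5 genes mostly lay under H3K27ac, and some also held CHD4. Of regions called in both Ikaros libraries of a time, 3 of 10 overlapped CHD4 in both libraries at 0 h, 5 of 12 at 30 min, 7 of 15 at 1 h and 6 of 11 at 2 h. The shares near the 5 genes were 30%, 41.7%, 46.7% and 54.5%, and over all Ikaros regions they were 23.7%, 37.7%, 29.1% and 28.9%. With 10 to 15 regions per time these shares were not tested. At 2 h the share was 0% of 9 when peaks were kept only at a -log10 q of at least 3. Few CHD4 peaks met that limit: 32 CHD4 regions of the genome met it in all 8 libraries, against 723 called without it. A share of 0% was thus nearly set by the limit, and the share over all Ikaros regions was not computed there. H3K27ac lay over 10 of 10, 12 of 12, 13 of 15 and 10 of 11 of the Ikaros regions near the 5 genes. Over all Ikaros regions the shares were 90.1%, 96.2%, 89.4% and 89.9%.

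A list of 22 other genes of the G1 to S step, including the E-type cyclins, CDK2, the E2F factors, the retinoblastoma family and the CDK inhibitors, was set beside the 5 genes. All 22 had an H3K27ac peak within 1 kb of a start site in all 8 libraries, as did 4 of the 5 members, the exception being Ccnd1, and 41.9% of all protein-coding genes. Gained Ikaros regions were near 7 of the 22 and lost ones near 1, while CHD4 was gained near 6 and lost near 0, and H3K27ac was gained near 2 and lost near 1. Cdkn2d, an inhibitor of CDK4 and CDK6, had 3 gained Ikaros regions. Rb1, the E2F factor gene E2f3 and Mnat1, which encodes a subunit of the CDK-activating kinase, had 2 each, and Cdc25a, E2f4 and Cdkn2b had 1 each. By limma with Benjamini-Hochberg adjustment at 2 h, 0 of 73 tested H3K27ac regions of the list and 0 of 6 CHD4 regions passed in either direction, and 1 of 14 Ikaros regions was lower. At an unadjusted p under 0.05 the counts were 4 H3K27ac, 1 CHD4 and 2 Ikaros regions higher, and 1 Ikaros region lower. Over all regions such a p was met by 15.9% of H3K27ac, 7.33% of CHD4 and 20.3% of Ikaros regions, and 5.68% of Ikaros regions passed after adjustment. Over all protein-coding genes, 26.8% had a gained and 8.43% a lost Ikaros region within 50 kb, 8.31% a gained and 2.34% a lost CHD4 region, and 9.26% a gained and 8.79% a lost H3K27ac region. The difference between the list and all genes was not tested, and the windows of the neighbours Cdkn2a and Cdkn2b overlap.

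The genes whose covered length varied most like each member were taken as the 3 with the highest mean Pearson r over the 3 targets, each over 8 libraries. For Ccnd2 these were Wipf2 (0.916), Syndig1l (0.911) and Cdc6 (0.889). For Ccnd1 they were Gm11099 (0.92), Ccdc148 (0.91) and Sept3 (0.889), where the CHD4 part rests on 1 library with a peak. For Ccnd3 they were Samd4b (0.924), 9930111J21Rik2 (0.923) and Katnal1 (0.92), for Cdk4 Sarnp (0.891), Ybx3 (0.868) and Ghrh (0.867), and for Cdk6 Snx5 (0.936), Mgme1 (0.929) and Nrros (0.881). These are the best of 11806 to 11843 genes compared and share list length with the members, so they describe likeness only.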

How the data were processed

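Groups were taken from the library titles. Per the labels and methods, the authors aligned reads to mm10 with Bowtie2 2.4.2, marked duplicates with Picard 2.23.7 and called peaks with MACS2 2.2.7.1, narrow for Ikaros and H3K27ac and broad for CHD4. Settings for the 30 min libraries, whether an input was used as control and whether a blacklist was applied to the peak lists are not given in the sources used here. The 8 input libraries were not analysed here. Each deposited list gives a fold enrichment (a ratio over local background), −log10 p and −log10 q, a display score that was not used, and a summit offset for narrow peaks. The deposited lists hold no counts, so no count model was run.

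Peaks were merged into regions and tested with limma 3.58.1 (R 4.3.3) on log2 fold enrichment, median-centred per library, with Benjamini-Hochberg adjustment over all regions called in all 8 libraries of a target. A fold is the highest among the library's peaks in a region. Background coverage was read back from MACS2's fold and p, where 38.7% to 69.2% of the peaks read matched 1 value within 0.01 of −log10 p. Genes came from GENCODE M21. Regions named were, per gene and target, the start-site region (within 1 kb) and the region with the highest mean fold over the libraries that called it, and every gained or lost region; others named were chosen after their values were seen. Members and lists were chosen with earlier results of these data known. Python 3.11.15 with pandas 2.3.3 was used.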

Additional observations from a re-analysis of the deposited data

How the results depend on the processing

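Counts of gained and lost regions were small and moved with the choice of peaks. At a -log10 q of at least 3 there were 0 gained Ikaros, 0 gained and 1 lost CHD4, and 0 gained and 2 lost H3K27ac regions. At a fold of at least 3 there were 0 gained Ikaros, 1 gained and 2 lost H3K27ac regions. With lists of equal size these were 0 gained and 2 lost Ikaros, 1 gained and 1 lost CHD4, and 1 gained and 3 lost H3K27ac regions. A further setting kept a peak only where it spanned at least 50% of its merged region. There were then 4 gained and 2 lost Ikaros, 1 gained CHD4 and 5 lost H3K27ac regions. Leaving out 1 library in turn gave 2 to 9 gained and 2 to 4 lost Ikaros, 2 to 9 gained and 0 to 3 lost CHD4, and 2 to 45 gained and 1 to 10 lost H3K27ac regions, the 45 without the second 2 h library. None of these alternative counts was made over all merged regions, so no background share stands beside them. The share of Ikaros regions with CHD4 at 2 h was 0% at the q limit and 20% with equal lists, and with H3K27ac it was 100% under those and the fold limit. The q limit left few CHD4 peaks to overlap, as 32 CHD4 regions met it in all 8 libraries, against 723 without it. A window of 20 kb left the gained and lost counts the same.

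Limma called 2 H3K27ac regions without centring, Ccnd2 at -1.44 and Cdk6 at -1.55. With regions called in at least 4 libraries it called 1, the gained Cdk6 region at 1.94 (limma, adjusted p = 0.0485). In that last setting each uncalled value was filled with the lowest fold of its list. The gained Cdk6 region had no call at 0 h, so both its 0 h values were fills. Its call there restates that it was gained and is no separate support. No other alternative called a region near the 5 genes, including leaving out each library and, added after the data were seen, the order of the times as a slope. Replicate numbers did not pair the libraries: the deviations of same-numbered libraries correlated at -0.0474 to 0.176. With the replicate number as a block the calls near the 5 genes were 0 for each target, and the Cdk6 start-site region had an adjusted p of 0.0846. Directions of regions near 0 turned over. Ccnd3's strongest H3K27ac domain was -0.39 without centring and -4.36 percentile points by rank. The far Ccnd3 Ikaros region ranged from -0.93 to 0.37 with a library left out. The Cdk6 CHD4 region was -0.063 without centring, -6.74 points by rank, -0.74 with regions called in at least 4 libraries, and -0.13 to 0.22 with a library left out, with -0.014 without the second 0 h library. The strongest Cdk6 H3K27ac domain was 0.13 and 0.0016 with a library left out. The Cdk6 Ikaros region was 0.044 by quantile normalization, -0.33 to 0.0034 with a library left out and 0.016 per step by the slope. Over all H3K27ac regions, limma called 28 higher and 35 lower, against 4 and 364 without centring, 26 and 64 by quantile normalization, 697 and 255 with at least 4 libraries, and 0 in either direction by rank or without any one 0 h or 2 h library (at an unadjusted p under 0.05, 1048 higher and 1097 lower by rank, and 927 to 1159 higher and 587 to 922 lower without a library). Without a 30 min library they were 2 and 11, and without a 1 h library 12 and 21. Over all Ikaros regions limma called 23 higher and 108 lower, against 4 and 93 without centring and 39 and 125 with the replicate block. The counts were 3 and 16 by quantile normalization, and 0 by rank or with at least 4 libraries. At an unadjusted limma p under 0.05 there were 166 higher and 142 lower by rank, and 1573 higher and 555 lower with at least 4 libraries.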
